A study of Mus musculus with 4 samples.

Results

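Fabp7, Apoe, Glul, Slc1a3, S100b, Ednrb, Cdh19 and Fbxo2 are 8 of the 41388 genes in the deposited tables, grouped here as markers of the satellite glia of the dorsal root ganglion. They were chosen by symbol, with the levels in these libraries known, because the libraries described as pools from a P2 mouse differed from those described as pools from an embryo in opposite directions from marker to marker. The contrast between these pairs of libraries therefore chose the genes, and in it their values are given as a description, with no test. All 8 passed the filter on low counts, and the lowest count of any of them in any library was 51.

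RNA was sequenced from EGFP-positive cells sorted from dorsal root ganglia of spinal levels T11 to S1 of C57BL/6 mice carrying a Ret-EGFP reporter, a marker of neurons that express the receptor tyrosine kinase Ret. The libraries were female A (40 ganglia) and male A (20 ganglia), both described as coming from a P2 mouse, and male B and male C (20 ganglia each), both described as coming from an embryo. The stage label of all 4 libraries is P2, each pool is labelled as coming from 1 animal, and all were prepared from 10 ng of RNA with a low-input amplification kit. The genotype label reads as a transgene, whereas the series text places EGFP at the Ret locus of heterozygotes. What the pool description stands for, age, animal or preparation, cannot be told apart from these labels. There was 1 female library, so sex is compared through female A and male A.

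Satellite glia are flat cells that wrap the cell body of each sensory neuron, and they arise from the neural crest like the neurons and the Schwann cells of the nerve. They take up glutamate and potassium around the neuron and are coupled to each other through gap junctions. Many of their markers are shared with Schwann cells or Schwann cell precursors, and several of the 8 genes are also expressed in other cells.

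The libraries held between 17388493 and 28066448 gene counts, and between 20551 and 22269 genes had at least 1 count. Of 15568 genes tested between the pairs with the edgeR quasi-likelihood test at an adjusted p of 0.05, 3472 (22.3%) were higher in the P2-mouse pair than in the embryo pair and 3112 (20.0%) were lower. With offsets for GC content and transcript length the split was 1976 higher and 3144 lower. The median log2 fold change of all genes was 0.02 and became 0.13 with no scaling beyond the library total, a shift that bears on values near 0. Libraries carried no molecular identifiers, so counts are of reads, and each pair holds 2 libraries. The 13 pan-sensory neuron markers, among them the tubulin gene Tubb3, were present in every library, at a summed level of 15100 CPM (counts scaled to one library size) in female A and 14500 CPM in male A, against 22200 CPM in male B and 21200 CPM in male C.

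The promoters of Ednrb, Fabp7, S100b and Apoe are shown because these genes had the highest levels per length of the 8 and exchanged places between the pairs. They are RefSeq promoters on GRCm38.p6, written 5′ to 3′ from 250 bases before to 50 bases after the transcript start, and promoters of 7 of the 8 genes were matched by symbol. Capitals mark the letters ACAAAG or ACAATG, short forms of the motif bound by SOX factors, on either strand (CTTTGT and CATTGT on the other).
Ednrb, chr14:103843652-103843951, minus strand: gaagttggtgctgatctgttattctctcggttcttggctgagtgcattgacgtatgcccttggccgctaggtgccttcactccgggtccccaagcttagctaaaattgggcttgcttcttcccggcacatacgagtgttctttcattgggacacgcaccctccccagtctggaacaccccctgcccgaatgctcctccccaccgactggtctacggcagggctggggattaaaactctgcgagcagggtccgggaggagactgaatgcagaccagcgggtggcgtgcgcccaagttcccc
Fabp7, chr10:57784673-57784972, plus strand: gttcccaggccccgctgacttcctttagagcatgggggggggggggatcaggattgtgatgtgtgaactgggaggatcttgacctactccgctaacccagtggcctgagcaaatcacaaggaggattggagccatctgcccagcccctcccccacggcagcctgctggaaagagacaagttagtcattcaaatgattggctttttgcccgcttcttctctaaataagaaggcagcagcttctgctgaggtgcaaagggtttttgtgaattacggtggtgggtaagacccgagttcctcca
S100b, chr10:76253586-76253885, plus strand: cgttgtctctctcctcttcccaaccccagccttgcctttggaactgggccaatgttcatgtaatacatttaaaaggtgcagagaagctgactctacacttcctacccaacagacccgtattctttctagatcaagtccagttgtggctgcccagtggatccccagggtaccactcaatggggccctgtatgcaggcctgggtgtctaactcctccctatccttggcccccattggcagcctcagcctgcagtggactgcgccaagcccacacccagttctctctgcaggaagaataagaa
Apoe, chr7:19699139-19699438, minus strand: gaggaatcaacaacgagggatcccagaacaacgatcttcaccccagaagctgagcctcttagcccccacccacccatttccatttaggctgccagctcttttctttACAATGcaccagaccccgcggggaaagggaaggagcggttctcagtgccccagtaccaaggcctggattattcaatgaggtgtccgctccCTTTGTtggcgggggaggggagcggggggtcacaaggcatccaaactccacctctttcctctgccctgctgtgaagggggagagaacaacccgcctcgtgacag

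Among these promoters the Apoe one, the most upstream of 3 RefSeq promoters of the gene, held ACAATG, whose first base lies at -144 from the start, and CTTTGT at -54. The windows of Ednrb, Fabp7 and S100b held neither, and neither did those of Glul, Slc1a3 and Fbxo2. ACAAAG was found in 18.7% and ACAATG in 12.6% of 32851 promoters of the same length, and either of them in 28.6%. A GC box core (GGGCGG, either strand, overlapping neither of the other motifs) was found at -33 in Glul, -151 in Fbxo2 and -145 in Slc1a3, and in 35.7% of all promoters. These are matches of letters and show no binding.

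Ednrb encodes the endothelin B receptor, a G protein-coupled receptor for the endothelin peptides that neural crest cells need to form melanocytes and enteric neurons in mice. The gene (ENSMUSG00000022122) lies at chr14:103814625-103844173 on the minus strand of GRCm38. Ednrb stood at 436 CPM in female A and 521 CPM in male A, against 124 CPM in male B and 164 CPM in male C. Both P2-mouse libraries were thus far above both embryo libraries, and the ratio of the mean levels was 3.32. The fitted log2 fold change was 1.62, or 1.16 with offsets for GC content and transcript length.

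The rest of the endothelin system, listed here as 8 genes, held little of the ligands. Like the other lists, this list was drawn up with earlier results of these data known. Edn1, Edn2, Edn3 and Kel were too low to be tested, and Kel had no count in any library. Of the 4 genes tested, 1 was higher and 1 lower, against 22.3% and 20.0% of all genes. Mme, a membrane peptidase that degrades small peptides, stood at 13.4 and 20.1 CPM in female A and male A, against 4.76 and 4.26 CPM in males B and C (log2 fold change 1.77, SE 0.259, adjusted p = 0.00137 by edgeR). With the offsets its log2 fold change was 0.69 and its adjusted p was 0.0535. Ece2, an endothelin-converting enzyme, fell (log2 fold change -0.89, SE 0.186, adjusted p = 0.00669 by edgeR), but missed the threshold with sex as a term (adjusted p = 0.0571), and the number lower was also 0 without male A. The other receptor gene, Ednra, differed in the opposite direction from Ednrb without passing the test, with 7.45 and 9.14 CPM in female A and male A and 11.5 CPM in each of male B and male C (log2 fold change -0.59, SE 0.207, adjusted p = 0.0518 by edgeR). With the offsets Ednra passed it (log2 fold change -0.79, adjusted p = 0.0191), and the number lower was 2 with the offsets, with relative log expression size factors, without a filter, by limma-voom and without male C. Ece1 had the highest mean CPM of the list, with 45.5 and 44.3 CPM in female A and male A and 49.8 and 52.4 CPM in males B and C.

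Cdh19 encodes a type II cadherin, a cell adhesion protein known from Schwann cell precursors and other neural crest-derived glia. The gene (ENSMUSG00000047216) lies at chr1:110888326-110977584 on the minus strand. Cdh19 stood at 38.4 CPM in female A and 42.4 CPM in male A, against 5.21 CPM in male B and 5.30 CPM in male C. The counts behind these values were 1077 and 738 in the P2-mouse pair, against 118 and 132 in the embryo pair. The libraries within each pair were close together, the pairs were far apart, and the ratio of the mean levels was 7.69. The log2 fold change was 2.83, or 2.04 with the offsets, the greatest in size of the 8 under both settings.

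Of 17 further cadherin genes 15 were tested, and 6 were higher and 3 lower, against 22.3% and 20.0% of all genes. With the offsets 2 were higher and 3 lower, and the number higher was 1 with sex as a term, 2 without female A and 1 without male A. The higher ones included Cdh7 (log2 fold change 1.57, SE 0.321, adjusted p = 0.00618 by edgeR), Cdh2, the N-cadherin gene (1.01, SE 0.278, adjusted p = 0.0212), and Cdh6 (1.00, SE 0.258, adjusted p = 0.0166). With the offsets Cdh7 and Cdh6 missed the threshold, at adjusted p of 0.0538 and 0.710, and Cdh2 passed it at 0.0365. With sex as a term Cdh7, Cdh2 and Cdh6 all missed it, at 0.0547, 0.152 and 0.0827. Cdh3, the P-cadherin gene, was the reverse of Cdh19, with 2.00 CPM in female A and 1.90 CPM in male A, against 12.2 CPM in male B and 10.7 CPM in male C (log2 fold change -2.66, SE 0.243, adjusted p = 0.000246 by edgeR). Cdh13 fell too (log2 fold change -1.04, SE 0.145, adjusted p = 0.00114 by edgeR). Of those with the highest CPM, Cdh11 rose (log2 fold change 0.61, SE 0.0899, adjusted p = 0.00145 by edgeR), but its log2 fold change was 0.06 with the offsets. Cdh1, the E-cadherin gene (-0.32, adjusted p = 0.0951), and Cdh8 (0.35, adjusted p = 0.0559) did not pass the test.

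**Figure D1:**
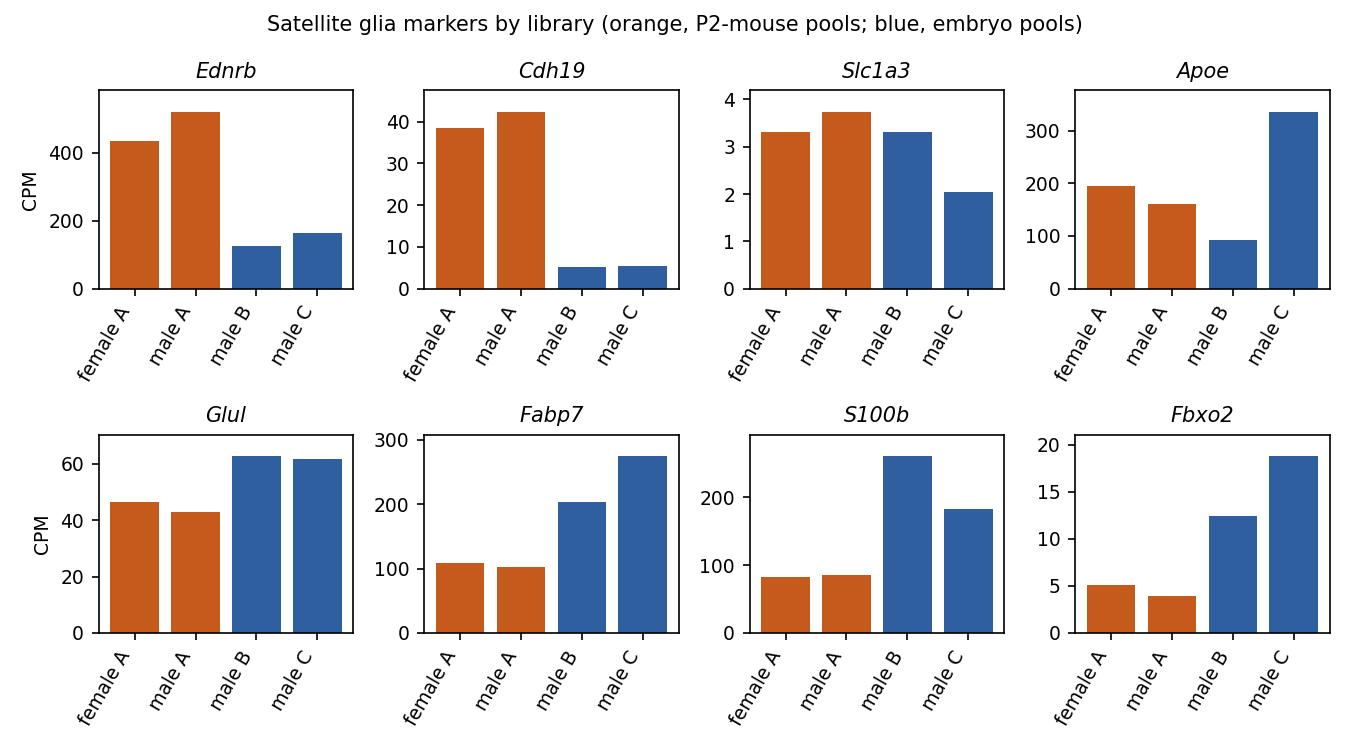
Level of each of the 8 genes in CPM (linear axes from 0, 1 bar per library, each panel with its own scale), with the P2-mouse pools female A and male A in orange and the embryo pools male B and male C in blue. Ednrb and Cdh19 are high in both orange bars, Glul, Fabp7, S100b and Fbxo2 in both blue bars, and Apoe is highest in male C and lowest in male B.

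Fabp7 encodes the brain fatty acid-binding protein, a small cytosolic lipid carrier of glial precursors and satellite glia. The gene (ENSMUSG00000019874) lies at chr10:57784881-57788450 on the plus strand. Fabp7 stood at 109 CPM in female A and 102 CPM in male A, against 204 CPM in male B and 275 CPM in male C. Both embryo libraries were above both P2-mouse libraries, and the mean of the embryo pair was 2.27 times that of the P2-mouse pair. The log2 fold change was -1.30, and -1.59 with the offsets.

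Of 9 other genes of the fatty acid-binding protein family 4 had enough counts to be tested, with 1 higher and 2 lower, against 22.3% and 20.0% of all genes. Fabp3 and Fabp5 fell with log2 fold changes of -1.85 (SE 0.225, adjusted p = 0.000635 by edgeR) and -0.90 (SE 0.0992, adjusted p = 0.00043). Fabp5 had the highest mean CPM of the list, with 119 and 115 CPM in female A and male A against 215 and 189 CPM in males B and C. Pmp2, the fatty acid-binding protein of peripheral myelin, stood at 141 and 248 CPM in female A and male A, against 13.9 and 16.9 CPM in males B and C (log2 fold change 3.54, SE 0.274, adjusted p = 0.000155 by edgeR). Fabp4 was low and did not pass the test (adjusted p = 0.538). Fabp1 and Fabp9 had no count in any library, and neither did Kel, Tyr and Nccrp1 of the other lists. At these depths a count of 0 allows a level of up to between 0.1069 and 0.1725 CPM by library, for counting error only.

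Apoe encodes apolipoprotein E, which glia secrete in lipoprotein particles. The gene (ENSMUSG00000002985) lies at chr7:19696109-19699166 on the minus strand. Apoe stood at 194 CPM in female A and 161 CPM in male A, against 93.2 CPM in male B and 336 CPM in male C. It is the marker of the 8 whose pairs overlap, since male B was the lowest and male C the highest of the 4 libraries. Male C held 3.61 times the level of male B, a gap of 1.85 on the log2 scale. The log2 fold change between the pairs was -0.39, became 0.15 with the offsets, and was 0.77 without male C and -1.05 without male B, so 1 library decides its direction.

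Of 12 genes of lipoprotein and lipid transport 11 were tested, with 3 higher and 3 lower, against 22.3% and 20.0% of all genes. With the offsets 1 was higher and 4 were lower. Abca1, a lipid exporter that loads lipoproteins, rose (log2 fold change 1.48, SE 0.188, adjusted p = 0.000757 by edgeR). The lipoprotein receptor genes Vldlr (0.99, SE 0.203, adjusted p = 0.00624) and Lrp8 (0.57, SE 0.148, adjusted p = 0.0175) rose as well, but had adjusted p of 0.380 and 0.512 with the offsets and 0.076 and 0.134 with sex as a term. The number higher was 1 with sex as a term and 1 without female A. Clu, which encodes the secreted apolipoprotein J, stood at 169 and 128 CPM in female A and male A, against 353 and 289 CPM in males B and C (log2 fold change -1.22, SE 0.149, adjusted p = 0.000642 by edgeR). The lipid exporter gene Abcg1 (-0.91, SE 0.121, adjusted p = 0.000934) also fell. None of these 5 named genes had the gap between male B and male C that Apoe had. Sorl1 did not pass the test (log2 fold change -0.24, adjusted p = 0.146) but had a log2 fold change of -0.56 with the offsets (adjusted p = 0.00539).

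Glul encodes glutamine synthetase, which turns glutamate and ammonia into glutamine and is a classical marker of satellite glia and astrocytes. The gene (ENSMUSG00000026473) lies at chr1:153899944-153909723 on the plus strand. It overlaps Teddm2 on the other strand and the microRNA gene Mir8114 over 3.49% of its exonic bases. It also has 11.91% of its 50-base words in common with other genes, among them the pseudogene Glns-ps1, so that part of its level is uncertain. Glul stood at 46.3 CPM in female A and 43.0 CPM in male A, against 62.8 CPM in male B and 61.8 CPM in male C. The pairs did not overlap and each was tight, but the difference was smaller than for the other markers low in the P2-mouse pair (log2 fold change -0.59, ratio of the embryo mean to the P2-mouse mean 1.39).

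Slc1a3 encodes GLAST, the glial transporter that takes up glutamate. The gene (ENSMUSG00000005360) lies at chr15:8634124-8710764 on the minus strand. Slc1a3 stood at 3.31 CPM in female A and 3.74 CPM in male A, against 3.31 CPM in male B and 2.05 CPM in male C. The counts were 93 and 65 in the P2-mouse pair, against 75 and 51 in the embryo pair, and female A and male B were at nearly the same level. The log2 fold change of 0.28 became -0.08 with the offsets, and it was -0.07 without male C and 0.65 without male B. A direction between the pairs was thus not detectable for Slc1a3 at this depth.

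Of 13 other genes of glutamate handling 12 were tested, with 3 higher and 2 lower, against 22.3% and 20.0% of all genes. With the offsets 2 were higher and 4 lower. The glutamine transporter gene Slc38a2 (log2 fold change 0.96, SE 0.0893, adjusted p = 0.00025 by edgeR) and the glutamate dehydrogenase gene Glud1 (0.45, SE 0.123, adjusted p = 0.0205) rose, and Glud1 missed the threshold with sex as a term (adjusted p = 0.0997). The number higher was 1 with sex as a term, without female A and without male A. The aspartate aminotransferase genes Got1 and Got2 fell, with 164 and 170 CPM of Got1 in female A and male A against 287 and 257 CPM in males B and C, and 118 and 113 CPM of Got2 against 215 and 227 CPM. Their log2 fold changes were -0.82 (SE 0.0947, adjusted p = 0.000534 by edgeR) and -1.05 (SE 0.0897, adjusted p = 0.000202).

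S100b encodes a small calcium-binding protein that is widely used as a marker of glia. The gene (ENSMUSG00000033208) lies at chr10:76253853-76261159 on the plus strand. S100b stood at 81.7 CPM in female A and 86.0 CPM in male A, against 261 CPM in male B and 183 CPM in male C. Both embryo libraries were above both P2-mouse libraries, and the embryo mean was 2.65 times the P2-mouse mean. The log2 fold change was -1.52, and -1.42 with the offsets.

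The list of 13 further genes held 12 of the S100 family and Ager, which encodes a receptor for S100 proteins. Of 10 tested, 1 was higher and 3 were lower, against 22.3% and 20.0% of all genes. S100a13 (log2 fold change -1.07, SE 0.184, adjusted p = 0.00282 by edgeR), S100a10 (-0.47, SE 0.0833, adjusted p = 0.0033) and S100a6 (-0.31, SE 0.08, adjusted p = 0.0163) fell, and S100a4 rose (0.92, SE 0.256, adjusted p = 0.0225). With the offsets S100a6 had a log2 fold change of 0.01. With sex as a term S100a4 and S100a6 missed the threshold (adjusted p = 0.0836 and 0.143), and the number higher was 0 with sex as a term, 0 without male A, 2 without female A and 2 without male B. S100a6 and S100a10 had the highest CPM, with 879 and 704 CPM in female A and 916 and 693 CPM in male A, against 1060 and 935 CPM in male B and 1000 and 851 CPM in male C. S100a11 and S100a16 did not pass the test (adjusted p = 0.654 and 0.556).

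Fbxo2 encodes an F-box protein that recognises N-linked sugar chains on misfolded glycoproteins and passes them to ubiquitin ligase, and it is also known from neurons of the brain. The gene (ENSMUSG00000041556) lies at chr4:148160621-148166424 on the plus strand. Fbxo2 stood at 5.06 CPM in female A and 3.91 CPM in male A, against 12.4 CPM in male B and 18.8 CPM in male C. The counts were 142 and 68 in the P2-mouse pair, against 282 and 468 in the embryo pair. The pairs did not overlap, and the embryo mean was 3.48 times the P2-mouse mean (log2 fold change -1.90, or -1.45 with the offsets).

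Of 8 other genes of glycoprotein F-box proteins and the ubiquitin ligase that holds them, 7 were tested, with 1 higher and 3 lower, against 22.3% and 20.0% of all genes. Fbxo44, of the same F-box family, had 10.6 and 13.5 CPM in female A and male A, against 38.5 and 26.5 CPM in males B and C (log2 fold change -1.55, SE 0.225, adjusted p = 0.00135 by edgeR). Fbxo17 fell too (-0.60, SE 0.191, adjusted p = 0.0374), though it had an adjusted p of 0.562 with the offsets and 0.149 with sex as a term. Of the ligase core, the scaffold gene Cul1 rose (0.96, SE 0.0961, adjusted p = 0.00031 by edgeR) and the RING subunit gene Rbx1 fell (-0.30, SE 0.0919, adjusted p = 0.0328), though with sex as a term its adjusted p was 0.218. The number lower was 1 with sex as a term, without female A and without male A, and the number higher was 2 without male B. The adaptor gene Skp1a, at 2510 and 2400 CPM in female A and male A and 2120 and 1830 CPM in males B and C, did not pass the test (adjusted p = 0.117).

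Across the 8 genes, the CPM ranges of the pairs did not overlap for 7. Of these 3 were higher in the P2-mouse pair, Slc1a3 by a margin far smaller than the gap between male B and male C, and 4 were lower. Over all genes tested, 42.5% were without overlap and higher and 30.8% without overlap and lower, and the counts of 3 and 4 of 8 are read against these shares. Within the P2-mouse pair no gene of the 8 differed by more than 0.37 on the log2 scale of CPM. Within the embryo pair the gap was 1.85 for Apoe, 0.69 for Slc1a3, 0.60 for Fbxo2, 0.51 for S100b, 0.43 for Fabp7 and 0.40 for Ednrb, and 0.03 or less for Cdh19 and Glul. Male C was above male B for Apoe, Fbxo2, Fabp7 and Ednrb, and below it for S100b and Slc1a3. Over the alternatives for processing and left-out libraries, Cdh19 kept log2 fold changes between 2.04 and 2.94, Ednrb between 1.16 and 1.79, Glul between -0.65 and -0.48, Fabp7 between -1.59 and -1.11, S100b between -1.79 and -1.25 and Fbxo2 between -2.18 and -1.45.

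Levels can be compared between genes only per length, as RPKM (CPM per kilobase of exon). In female A the order ran from Ednrb at 108 RPKM through Apoe (97.9), Fabp7 (87.4), S100b (55.1), Glul (13.9), Cdh19 (8.97) and Fbxo2 (3.93) to Slc1a3 at 0.388 RPKM. In male A the order was the same but for Fabp7 (81.5 RPKM), which stood just above Apoe (81.2 RPKM). In male B it was S100b (176 RPKM), Fabp7 (163), Apoe (47.1), Ednrb (30.8), Glul (18.9), Fbxo2 (9.66), Cdh19 (1.22) and Slc1a3 (0.388 RPKM). In male C it was Fabp7 (220 RPKM), Apoe (170), S100b (123), Ednrb (40.6), Glul (18.6), Fbxo2 (14.6), Cdh19 (1.24) and Slc1a3 (0.240 RPKM). Apoe and Fabp7 did not differ beyond their spread in the P2-mouse pair, and neither did Fabp7, S100b and Apoe in the embryo pair. The other neighbours kept their order in both libraries of a pair.

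Ednrb thus led both P2-mouse libraries and stood in the fourth place in both embryo libraries. Its share of the RPKM summed over the 8 genes was 28.7% in female A and 34.3% in male A, against 6.88% in male B and 6.90% in male C. Fabp7 held 23.3% and 21.7% in the P2-mouse pair, against 36.5% and 37.4% in the embryo pair. S100b held 14.7% and 15.4% in the P2-mouse pair, against 39.3% and 21.0% in the embryo pair. The sums themselves were 376 RPKM in each of female A and male A, against 447 RPKM in male B and 588 RPKM in male C.

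**Figure D2:**
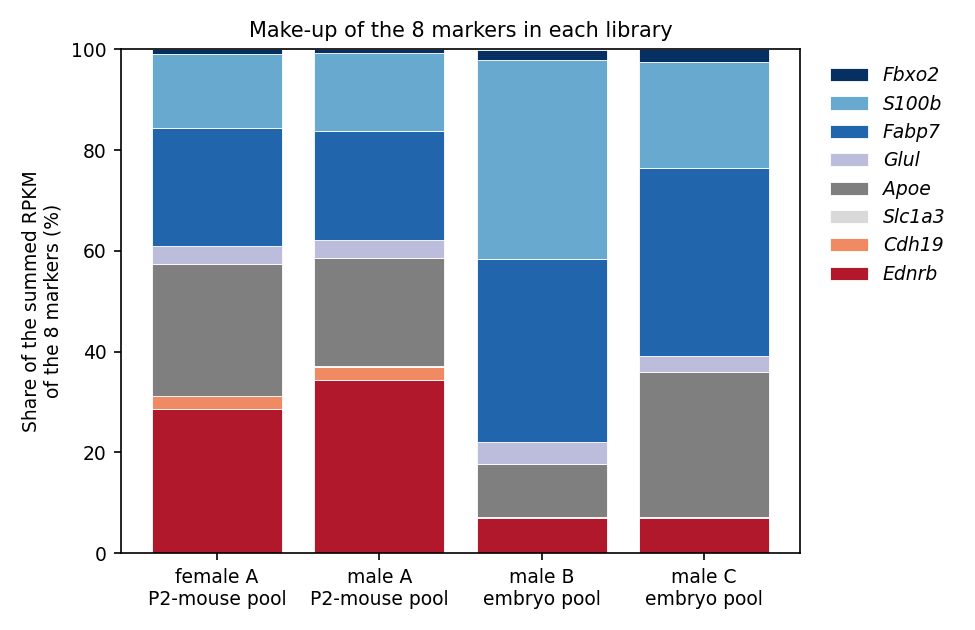
Share of each gene in the RPKM summed over the 8 genes (percent, stacked bars, 1 bar per library, P2-mouse pools left of embryo pools). Ednrb takes 28.7% and 34.3% in female A and male A against 6.88% and 6.90% in males B and C, while the Fabp7 and S100b shares are larger in the embryo pools.

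The other satellite glia markers moved mostly one way. Of 16 further markers 15 were tested, and by the edgeR test 11 rose and 0 fell in the P2-mouse pair, against 22.3% and 20.0% of all genes. This list was drawn up with earlier results of these data known, so the counts are a description. The number lower was also 0 at an unadjusted p under 0.05, by DESeq2 and by limma-voom. The median log2 fold change of the 15 was 1.14, against 0.02 over all genes. Kcnj10, the potassium channel of satellite glia, stood at 42.7 and 49.8 CPM in female A and male A, against 10.1 and 8.43 CPM in males B and C (log2 fold change 2.20, SE 0.17, adjusted p = 0.000155 by edgeR). The neuregulin receptor gene Erbb3 (2.14, SE 0.154, adjusted p = 0.000141) and the transcription factor gene Sox2 (2.09, SE 0.257, adjusted p = 0.000664) rose too. So did the matrix protein gene Sparc, at 1120 and 1310 CPM in female A and male A against 486 and 536 CPM in males B and C (1.13, SE 0.106, adjusted p = 0.000253). The acyl-CoA-binding protein gene Dbi, also among the genes of this list with the highest CPM, rose less (0.65, SE 0.0978, adjusted p = 0.0016).

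The markers of this list that did not pass the test were Gja1, Atp1b2, Ttyh1 and Entpd2, named after their values were seen. Gja1, the gap junction gene connexin 43, stood at 79.0 and 60.2 CPM in female A and male A, and 62.1 and 65.1 CPM in males B and C (log2 fold change 0.02, adjusted p = 0.938 by edgeR). With the offsets Gja1 had a log2 fold change of -0.52 (adjusted p = 0.0291) and 10 of the list were higher. Atp1b2, a sodium pump subunit, had 20.1 CPM in each of female A and male A, against 5.78 CPM in male B and 22.0 CPM in male C, so male B was low for it as for Apoe. Entpd2 stood lower (log2 fold change -0.37, adjusted p = 0.125), and it was called lower without male B but had a log2 fold change of 0.09 with the offsets. Without male C, Atp1b2 and Ttyh1 were called higher, and 13 of the list in all. Gfap was too low to be tested, at 0.285 and 0.288 CPM in female A and male A and 0 and 0.0402 CPM in males B and C. Within the 8 genes Cdh19 and Ednrb were thus on the same side as most of this list, and Fabp7, S100b, Glul and Fbxo2 on the other.

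**Figure D3:**
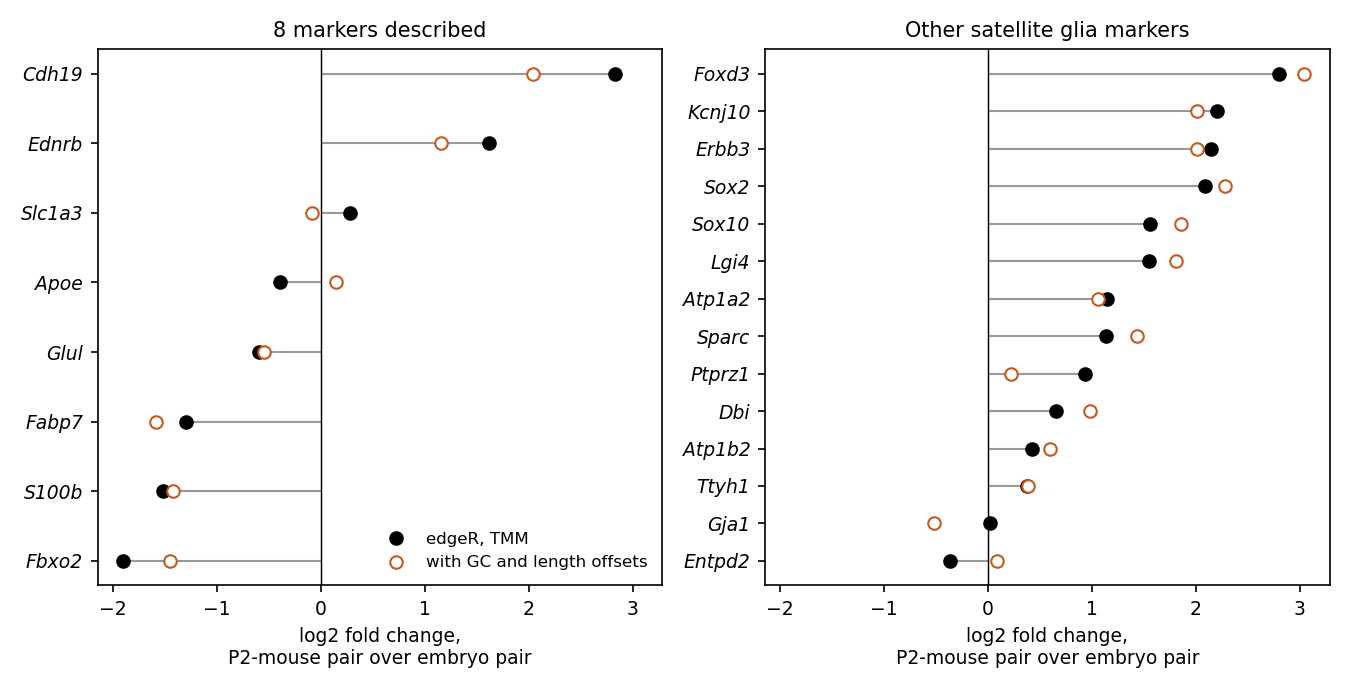
Log2 fold change of the P2-mouse pair over the embryo pair for the 8 genes (left) and for other satellite glia markers that were tested (right, 1 of the 15 not drawn), from edgeR with TMM scaling (filled points) and with offsets for GC content and transcript length (open points). The 8 genes run from -1.90 (Fbxo2) to 2.83 (Cdh19) on both sides of 0, while none of the other markers passed the test below 0 with TMM scaling alone.

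Markers of other cells moved with the same contrast, and are given beside the 8 genes for that reason. Their lists were also drawn up with earlier results of these data known, so the counts below are a description. Since these are bulk samples, fewer cells of a type and less RNA per cell cannot be told apart. Of 13 markers of myelinating Schwann cells all were tested, with 11 higher and 0 lower by edgeR, against 22.3% and 20.0% of all genes. The number of them lower was also 0 at an unadjusted p under 0.05, by DESeq2 and by limma-voom. Their summed level was 4770 CPM in female A and 7620 CPM in male A, against 2950 CPM in male B and 2960 CPM in male C, and their median log2 fold change was 2.57. The myelin genes Mbp (760 and 1330 CPM in female A and male A, against 218 and 267 CPM in males B and C) and Mal rose with log2 fold changes of 1.99 and 2.11. The transcription factor genes Pou3f1 and Egr2 and the tight junction gene Cldn19 rose with 4.31, 3.13 and 3.00. Pmp22, with the highest CPM of the list, did not pass the test (0.41, adjusted p = 0.108 by edgeR), but passed it with sex as a term (0.70, adjusted p = 0.0134).

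Of 10 fibroblast markers 9 were tested, with 6 higher and 0 lower by edgeR, against 22.3% and 20.0% of all genes. The number of them lower was also 0 at an unadjusted p under 0.05, by DESeq2 and by limma-voom. Their summed level was 1540 CPM in female A and 1690 CPM in male A, against 337 CPM in male B and 359 CPM in male C. The collagen genes Col3a1, Col1a2 and Col1a1 led with log2 fold changes of 3.25, 2.57 and 2.50, and Dcn (0.28, adjusted p = 0.0367) had -0.59 with the offsets (adjusted p = 0.00194) and an adjusted p of 0.116 with sex as a term. Of 10 endothelial and mural markers 9 were tested, with 4 higher and 1 lower, against 22.3% and 20.0% of all genes, all 5 with a mean under 5 CPM. The number higher was 0 with sex as a term, 0 without female A, 1 without male A and 2 without male C. The number lower was 0 by DESeq2, with sex as a term, and without female A, male A or male B, and 2 with the offsets. Their sum was 105 CPM in female A and 103 CPM in male A, against 102 CPM in male B and 93.5 CPM in male C, most of it from Rgs5 and Pdgfrb, which did not pass the test, although Rgs5 was called lower with the offsets (log2 fold change -0.66, adjusted p = 0.00546). The 4 endothelial and mural markers called higher, named after their values were seen, were Cdh5, Kdr, Flt1 and Tek, and the 1 lower was Acta2. Cdh5 stood at 4.17 and 1.78 CPM in female A and male A, against 0.794 and 0.843 CPM in males B and C. Pecam1 did not pass the test, at 4.45 and 1.21 CPM against 1.90 and 2.61 CPM. Cldn5, also named after its values were seen, was too low to be tested, at 0.392 and 0.403 CPM against 0.0441 and 0.0402 CPM. The 12 macrophage markers summed to 5.49 CPM in female A and 12.9 CPM in male A, against 4.90 CPM in male B and 4.78 CPM in male C. Of the 4 macrophage markers tested, 0 were called in either direction by edgeR, against 22.3% and 20.0% of all genes. DESeq2 and limma-voom also called 0, while the unadjusted p by edgeR was under 0.05 for 1 higher and 0 lower. Without the filter, which had left out the other markers of this list, edgeR called 2 higher and 0 lower. The number higher also changed without male B and without male C.

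Of 6 melanocyte markers 3 were tested. Tyr had no count, and Dct and Mlana stood at 0.214 CPM or less in every library. Tyrp1 was lower, with 50.8 and 42.0 CPM in female A and male A against 87.7 and 138 CPM in males B and C (log2 fold change -1.39, SE 0.209, adjusted p = 0.00154 by edgeR). Mitf and Pmel, named after their values were seen, were higher with edgeR adjusted p of 0.0176 and 0.0144. With sex as a term both missed the threshold (0.098 and 0.0724), as Mitf did with the offsets (0.0637), and the number of melanocyte markers called higher was also 0 without female A and without male A. Of the 13 pan-sensory neuron markers 1 was higher and 10 were lower, against 22.3% and 20.0% of all genes. Their median log2 fold change was -0.54. The tubulin gene Tubb3 (2040 and 1850 CPM in female A and male A, against 5510 and 5190 CPM in males B and C), the neurofilament gene Nefm and the actin-binding protein gene Avil fell with log2 fold changes of -1.58, -1.0 and -0.92. The sodium channel gene Scn9a rose with 0.86, which was -0.02 with the offsets. The part of these cell types in the levels of the 8 genes was not tested.

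**Figure D4:**
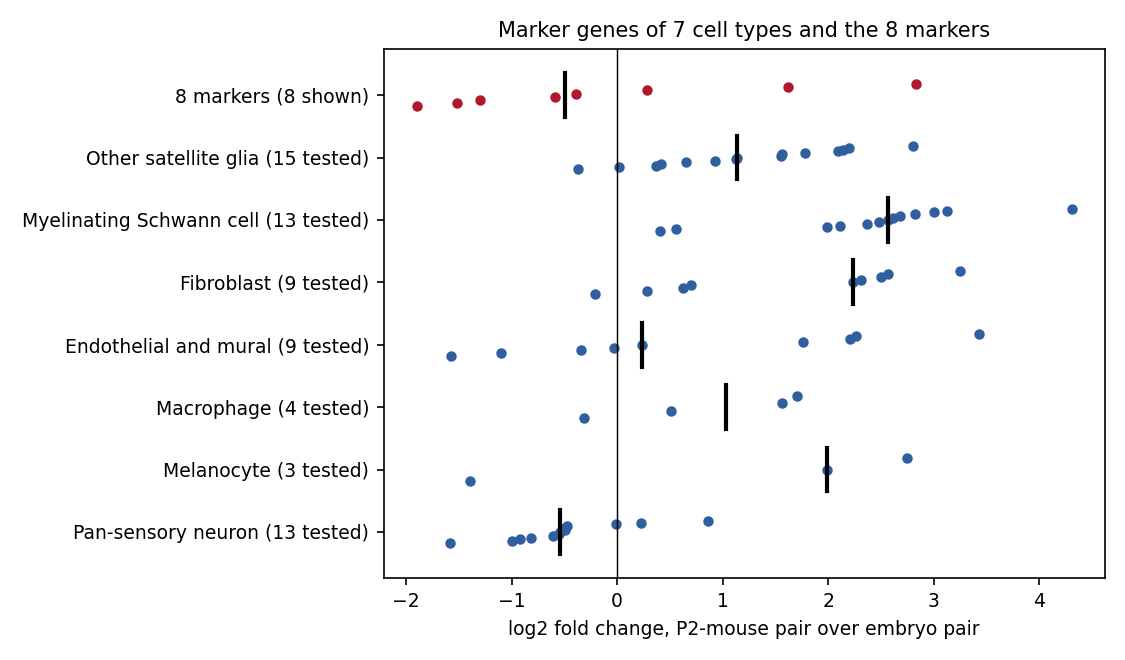
Log2 fold change of the P2-mouse pair over the embryo pair for the 8 genes (red) and for the tested markers of satellite glia and other cell types (blue), 1 point per gene, with the median of each list as a vertical bar. The medians lie at 2.57 for myelinating Schwann cell, 2.24 for fibroblast, 1.14 for other satellite glia and -0.54 for pan-sensory neuron markers, and the 8 genes spread from -1.90 to 2.83.

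GC content moved with the contrast over the whole transcriptome. Across 15474 genes, which are not independent, the rank correlation of the log2 fold change was -0.444 with the GC content of the longest transcript and 0.275 with its length. The median log2 fold change was 0.76 in the lowest of 10 equal bins by GC content (median 39.5%) and -0.38 in the highest (median 59.3%). Cdh19, with a GC content of 37.4%, and Fbxo2, with 61.8%, lay near the ends of this range. Ednrb (43.9%) and Fabp7 (42.6%) had close GC contents and opposite log2 fold changes of 1.62 and -1.30. Their longest transcripts were unlike in length, at 4107 and 880 bases. The GC contents were 48.3% for S100b, 49.2% for Glul, 45.7% for Slc1a3 and 59.5% for Apoe. Offsets for GC content and length left Cdh19, Ednrb, Glul, Fabp7, S100b and Fbxo2 on the same side of 0, with Cdh19 at 2.04 and Fbxo2 at -1.45.

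**Figure D5:**
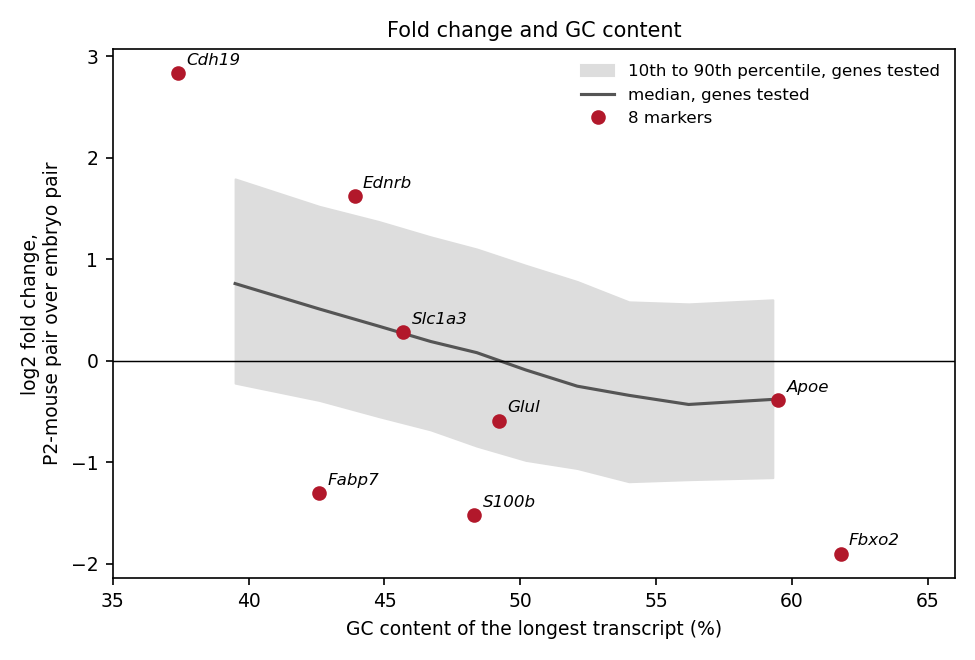
Log2 fold change of the P2-mouse pair over the embryo pair against the GC content of the longest transcript (percent) for the 8 genes (red points), with the median (line) and the 10th to 90th percentile (grey band) of all genes tested in 10 equal bins by GC content. The line falls from 0.76 in the lowest bin to -0.38 in the highest, and Ednrb and Fabp7 lie on opposite sides of 0 at 43.9% and 42.6% GC. The longest transcripts of Ednrb and Fabp7 have 4107 and 880 bases.

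The comparison of sexes did not choose the genes and could be tested. With the pool description as a term it sets female A against male A, with the spread taken from male B and male C. Of the 8 genes 0 passed the edgeR test, against 3 of 15568 genes (0.0193%), and the number was also 0 at an unadjusted p under 0.05, by DESeq2 and by limma-voom. The log2 fold changes of female A over male A were 0.08 for Fabp7 (SE 0.236), 0.25 for Apoe (SE 0.801), 0.09 for Glul (SE 0.17) and 0.35 for Fbxo2 (SE 0.426). They were -0.19 for Slc1a3 (SE 0.542), -0.10 for S100b (SE 0.265), -0.28 for Ednrb (SE 0.221) and -0.17 for Cdh19 (SE 0.23), with an edgeR adjusted p of 1 for each of the 8. The test rests on 1 residual degree of freedom and on 1 library per sex, so differences of these sizes were not detectable. The 3 genes that passed, named after their values were seen, were the Y-linked genes Eif2s3y, Uty and Ddx3y, lower in female A than in the males (edgeR adjusted p = 0.0101, 0.0378 and 0.00813). Without male A, sex and pool description are the same contrast and leave no separate test.

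The genes most like each marker over the 4 libraries were found among 6753 genes with a mean of at least 20 CPM, by the root mean square difference of centred log2 CPM. With 4 libraries in 2 pairs many genes share a pattern, so this is a description. Nearest to Ednrb were Dock10 (0.0422), Fam135a (0.0518) and Bche (0.0553), and nearest to Cdh19 were Qk (0.0889), Lama2 (0.120) and Col1a2 (0.123). Fabp7 was nearest to Lypla2 (0.0287) and Tpra1 (0.058), and Fbxo2 to Cnmd (0.0741), Alpl (0.0823) and Pfkl (0.0929). S100b was nearest to Vsnl1 (0.0564), the neurofilament gene Nefh (0.0637) and Hsbp1l1 (0.0803). Nefh had 68.6 and 65.6 CPM in female A and male A, against 195 and 141 CPM in males B and C. Glul was nearest to Chmp2a (0.00405), Phactr1 (0.0146) and Ipo4 (0.0163), and Slc1a3 to Med1 (0.0637), Rnf19b (0.0643) and Id4 (0.0754). Apoe was nearest to Spr (0.0619), Nnat (0.0728) and Zfpl1 (0.0894), which shared its low level in male B and high level in male C. Nnat had 349 and 303 CPM in female A and male A, against 165 CPM in male B and 551 CPM in male C.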

How the data were processed

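Bulk RNA sequencing of 4 libraries was analysed, grouped by the labels' pool description and sex. Per the submitters' processing notes, featureCounts 1.4.5 (Subread) and the build GRCm38.p2 stand behind the deposited counts of reads per gene. Each deposited CPM is the count scaled by its library's total of gene counts, and the deposited RPKM values are CPM per kilobase of exon length, as recomputed here. Not given in the sources used here are the aligner, the strand setting and how multiply mapped reads were treated. Without molecular identifiers, counts carry amplification as well as sampling. Symbols came from GENCODE M21 (97.3% of genes matched).

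Counts were tested with the edgeR 4.0.16 quasi-likelihood test (R 4.3.3) with TMM scaling (factors 0.961 to 1.048), Benjamini-Hochberg adjustment over all genes tested at 0.05 and the filterByExpr filter (count at least 10, total at least 15). The fit between the pairs had 2 residual degrees of freedom, the fit of sex with the pool description 1. Each library is 1 animal by its label, and p-values set a difference against the spread between these libraries. In the fit between the pairs that spread also holds sex and the number of pooled ganglia, which differ between female A and male A. DESeq2 1.42.0, limma-voom (limma 3.58.1), other scalings and filters, sex as a term, GC and length offsets (mgcv 1.9.3) and left-out libraries were alternatives. Log CPM for likeness used a prior count of 2.

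The 8 genes and all lists were chosen with earlier results of these data known. Of each list the text names the 4 genes with the highest mean CPM in their list where they bear on a result, and per direction up to 3 called genes with the largest fold and a mean of at least 5 CPM. Per marker it names the 3 most alike genes. A few genes this rule would name are left out here. Others were named after their values were seen, as is said for some of them where they appear. They include genes with no count or too low to be tested.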

Additional observations from a re-analysis of the deposited data

How the results depend on the processing

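The count of genes higher in the P2-mouse pair was 1976 with GC and length offsets and 2064 with sex as a term, and the count lower was 1615 with sex as a term. With each library left out in turn these counts ranged from 1935 to 3630 and from 1681 to 3311, lowest without male A and 2202 and 1834 without female A. The other satellite glia markers called lower numbered 1 with the offsets and 0 to 1 with each library left out, 1 without male B. Genes called between female A and the males numbered 5 with relative log expression size factors, 9 without a filter, 0 with limma-voom and 0 without the pool term. They numbered 3616 without male A, where sex and pool description are the same contrast. In that fit the female log2 fold changes were -1.25 for Fabp7, 1.48 for Ednrb, 2.75 for Cdh19 and -1.74 for Fbxo2. Over the left-out libraries they ranged from -1.25 to 0.10, from -0.26 to 1.48, from -0.15 to 2.75 and from -1.74 to 0.37. Without male B or male C the sex fit has no residual degrees of freedom and gives values only. Between the pairs, Slc1a3 had -0.08 with the offsets and -0.07 to 0.65 with a library left out, and Apoe -1.05 to 0.77, with the ends set by male B and male C. The causes were not tested. No paired analysis was possible, because there was 1 female library. It shares the letter A and the pool description with male A, and no label names them as a pair. Depth limits Slc1a3 most, at 51 to 93 counts a library.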
